A study of Mus musculus with 931 samples.

Results

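The mitotic and G2/M genes are 39 genes whose products carry a cell from the end of DNA replication through division: Mki67, Top2a, Cdk1, Ccna2, Ccnb1, Ccnb2, Cdc20, Plk1, Aurka, Aurkb, Bub1, Bub1b, Mad2l1, Ttk, Birc5, Cenpa, Cenpe, Cenpf, Ncaph, Ncapg, Smc2, Smc4, Kif11, Kif20a, Kif23, Kif2c, Tpx2, Prc1, Nusap1, Ube2c, Foxm1, Pbk, Cdca8, Incenp, Ndc80, Nuf2, H2afz, Hmgb2 and Hmmr. They were taken by symbol from count tables of 40824 genes, and all 39 were found and passed the low-count filter of every fit. Expression was followed in pancreatic islet cells of mice from the embryonic stage E17.5 over postnatal stages P0, P3, P9, P15 and P18 to the adult at P60, which addresses how β cells (insulin) and α cells (glucagon) mature. Bulk RNA-seq covered 14 libraries of FACS-sorted β cells, 2 per stage. Smart-seq2, a full-length single-cell method without molecular identifiers, covered 866 unselected single-hormone cells in 45 labelled batches, which were 328 α cells in 20 batches and 538 β cells in 25 batches. A further 21 β cells, 9 at P0 and 12 at P9, came from 2 batches whose cells had first been screened by RT-qPCR for Pbk, Foxm1 and Cdk1 to enrich dividing ones.

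All groups compared here carry a fluorescent reporter and no group is untreated wild type. β cells came from Ins1-RFP mice (C57BL/6 and C3H mixed), in which the insulin promoter marks the cells. α cells came from Gcg-Cre; Rosa-RFP mice (C57BL/6, CBA/J and C3H mixed), in which the mark records past Gcg-Cre activity, and no α cells were collected at P3. Cell type and mouse strain therefore cannot be told apart. Single cells were FACS-sorted or picked by hand, and both methods occur in every unselected group. The labels name batches and no animals, so the p-values measure the spread between libraries or batches, which may be technical. Bulk libraries held 10.3 M to 21.4 M reads, batches 5.96 M to 49.1 M reads in 5 to 39 cells, and single cells a median of 1.15 M reads. The labelled types matched their markers at E17.5 and P60. The summed level of 5 α markers was 122328 to 159773 CPM (reads of a gene scaled to a common library size) in E17.5 α batches against 1389 to 1471 CPM in E17.5 β batches, and that of 6 β markers was 2758 to 5851 CPM in E17.5 α batches against 232236 to 297180 CPM in E17.5 β batches. At P60 the α markers were at 366738 to 497762 CPM in α batches against 487 to 880 CPM in β batches, and the β markers at 557 to 1111 CPM in α batches against 509587 to 556094 CPM in β batches.

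Entry into mitosis is driven by CDK1 bound to A- and B-type cyclins. Polo-like and Aurora kinases then build the spindle, condensin and topoisomerase II compact the chromosomes, the kinetochore and its checkpoint hold anaphase back, and the anaphase-promoting complex with CDC20 releases it. Most of these genes are transcribed late in the cycle by the MuvB complex with B-MYB and FOXM1, acting at a CHR element near the start site, and by NF-Y at CCAAT boxes. In the mouse pancreas, β and α cells divide before and shortly after birth and seldom in the adult.

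The promoter stretches of 6 of the genes are shown because these 2 motifs are what the set is known to share in its DNA. RefSeq promoters on GRCm38.p6, 250 bases before to 50 after the start, matched 31 of the 39 genes (30 by symbol and H2afz as H2az1) with 32 promoters. Each line gives 150 bases, 100 before to 50 after the start, 5′ to 3′ on the gene's strand, and the capitals mark TTTGAA or TTCGAA and CCAAT, on either strand.
Cdk1 (chr10:69352863-69353012, strand minus): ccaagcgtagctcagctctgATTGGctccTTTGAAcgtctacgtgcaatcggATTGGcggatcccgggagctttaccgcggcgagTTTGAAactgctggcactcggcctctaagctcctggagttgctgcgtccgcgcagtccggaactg
Ccnb2 (chr9:70421505-70421654, strand minus): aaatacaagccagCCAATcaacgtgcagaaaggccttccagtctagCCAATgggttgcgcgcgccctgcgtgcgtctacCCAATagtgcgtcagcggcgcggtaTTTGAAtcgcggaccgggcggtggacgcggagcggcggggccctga
Cdc20 (chr4:118437294-118437443, strand minus): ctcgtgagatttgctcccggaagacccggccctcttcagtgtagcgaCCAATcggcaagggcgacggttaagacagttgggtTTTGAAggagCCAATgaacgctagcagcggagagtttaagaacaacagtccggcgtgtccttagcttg
Plk1 (chr7:122159335-122159484, strand plus): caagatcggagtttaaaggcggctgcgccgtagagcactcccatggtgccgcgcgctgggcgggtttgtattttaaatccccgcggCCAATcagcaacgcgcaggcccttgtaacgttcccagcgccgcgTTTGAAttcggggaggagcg
Cenpf (chr1:189688037-189688186, strand minus): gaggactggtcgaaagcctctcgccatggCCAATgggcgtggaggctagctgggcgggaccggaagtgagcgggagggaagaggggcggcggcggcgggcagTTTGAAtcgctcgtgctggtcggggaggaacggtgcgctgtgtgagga
Kif11 (chr19:37376282-37376431, strand plus): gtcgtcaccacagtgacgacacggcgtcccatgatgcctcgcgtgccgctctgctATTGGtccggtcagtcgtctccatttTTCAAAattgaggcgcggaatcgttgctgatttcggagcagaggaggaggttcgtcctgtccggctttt
In the Cdk1 stretch the hexamers begin at -71 and -15 relative to the start and the CCAAT boxes, read as ATTGG, at -80 and -48. Ccnb2 holds CCAAT at -87, -54 and -21 with TTTGAA at 5. In Kif11 both motifs lie on the opposite strand, TTCAAA at -19 and ATTGG at -45.

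TTTGAA or TTCGAA on either strand stood in 24 of the 32 promoters of the set (75.0%), against 6316 of all 32851 promoters (19.2%). Within 50 bases of the start the hexamers stood in 22 of 32 (68.8%), against 5.31% of all promoters. CCAAT on either strand stood in 25 of 32 (78.1%), against 37.4%, and 2 or more CCAAT in 16 of 32 (50.0%), against 11.7%. The motifs occurred together in 22 of 32 promoters of the set and in 7.52% of all. These matches describe the letters only. Promoters of Ccna2, Foxm1, Aurkb, Pbk, Incenp, Smc4, Kif20a and Tpx2 were not analysed here.

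In bulk β cells the genes were lower at P60 than at E17.5, with 38 of 39 called at adjusted p below 0.05 in edgeR's quasi-likelihood test over all genes. Of all 16086 genes tested, 15.2% were called lower. The median log2 change was -3.20 over the 39 genes and -0.03 over all genes tested, and the changes spanned -3.85 for Aurkb to -0.65 for H2afz. Smc4, a core condensin subunit, was the gene not called (log2 change -1.02, adjusted p = 0.095), at 38.5 and 41.7 CPM in P60 libraries and 103 and 60.5 in E17.5 libraries. For each of the 39 genes both P60 libraries lay below both E17.5 libraries, as they did for 36.6% of all genes tested. In bulk, fewer dividing cells and less of each transcript per cell cannot be told apart.

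Cyclins, their kinase and FOXM1 fell together, with 5 of 5 called. Cdk1, the mitotic kinase, stood at 2.19 and 3.90 CPM at P60 and at 37.2 and 25.6 CPM at E17.5 (log2 change -3.36 ± 0.80, SE). Ccnb1, a B-type cyclin, was at 3.89 and 2.37 CPM at P60 and at 39.5 and 18.0 CPM at E17.5. Its relative Ccnb2 was at 2.41 and 1.66 CPM at P60 and at 25.4 and 13.8 CPM at E17.5. The P60 libraries lay apart from the earlier stages for each of these, except that P15 library 2 held 3.36 CPM of Cdk1 and 1.94 CPM of Ccnb1, and it held 3.08 CPM of Ccnb2. Foxm1, the transcription factor of the programme, was at 3.12 and 2.88 CPM at P60, against 32.3 and 25.4 CPM at E17.5.

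Mitotic kinases (4 of 4 called), chromosomal passenger proteins (3 of 3) and checkpoint genes (4 of 4) fell as well. Plk1, which acts at centrosomes and kinetochores, was at 2.83 and 1.41 CPM at P60 and at 21.5 and 11.6 CPM at E17.5. Aurkb, the kinase of the chromosomal passenger complex, was at 1.49 and 0.639 CPM at P60 and at 18.2 and 12.4 CPM at E17.5 (log2 change -3.85 ± 0.86). Its partner Birc5 (survivin) was at 1.2 and 1.3 CPM at P60 and at 17.7 and 9.16 CPM at E17.5. The P60 and E17.5 libraries did not overlap for any of them. Incenp, the scaffold of the same complex, fell less, to 7.29 and 5.11 CPM at P60 against 33.0 and 23.9 CPM at E17.5 (log2 change -2.20 ± 0.43, adjusted p = 0.003). Bub1, a checkpoint kinase, was at 1.13 and 1.53 CPM at P60 and at 22.8 and 15.8 CPM at E17.5 (log2 change -3.84 ± 0.71, adjusted p = 0.002). Pbk, a mitotic kinase, was at 3.97 and 4.22 CPM at P60 and at 43.1 and 21.0 CPM at E17.5.

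Kinetochore genes (5 of 5 called), spindle genes (8 of 8) and the anaphase genes Cdc20 and Ube2c (2 of 2) fell too. Cenpf, a kinetochore and nuclear envelope protein, was at 8.57 and 6.65 CPM at P60 and at 63.6 and 28.4 CPM at E17.5. Kif11, the motor that pushes spindle poles apart, was at 2.90 and 3.45 CPM at P60 and at 44.4 and 26.4 CPM at E17.5. Tpx2, which activates Aurora A on the spindle, was at 3.26 and 2.81 CPM at P60 and at 51.7 and 27.8 CPM at E17.5. The spread between the E17.5 libraries was wider than that between the P60 libraries for each of them. Cdc20, the activator of the anaphase-promoting complex, was at 2.62 and 2.75 CPM at P60 and at 21.6 and 14.2 CPM at E17.5, and Ube2c, its ubiquitin-conjugating enzyme, was at 3.89 and 2.75 CPM at P60 and at 28.7 and 16.4 CPM at E17.5.

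Among condensin and chromosome structure genes 5 of 6 were called, and both chromatin genes. Top2a, which untangles sister DNA, was at 16.3 and 17.9 CPM at P60 and at 207 and 109 CPM at E17.5, and Mki67, a coat protein of mitotic chromosomes, was at 18.5 and 16.3 CPM at P60 and at 183 and 101 CPM at E17.5. Hmgb2, a DNA-bending chromatin protein, had the smallest p of the set and fell to 17.1 and 11.1 CPM at P60, against 98.8 and 64.3 CPM at E17.5 (log2 change -2.54 ± 0.37, adjusted p = 5.07e-04). H2afz, the histone variant H2A.Z that dividing and non-dividing cells both use, moved least, to 78.0 and 80.2 CPM at P60 against 127 and 122 CPM at E17.5.

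**Figure D1:**
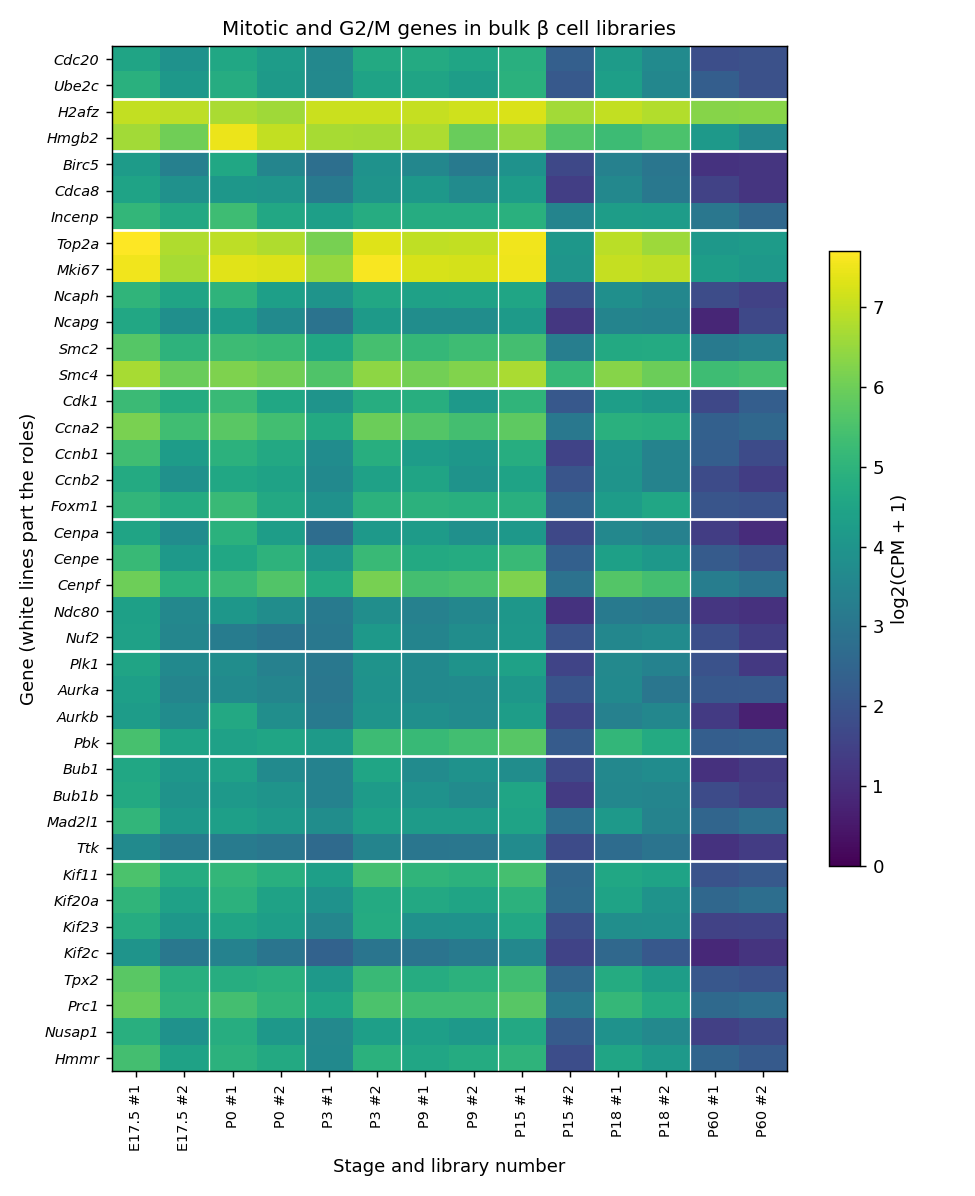
Level of each of the 39 genes (rows, parted by role) in each of the 14 bulk β cell libraries (columns, by stage), as log2(CPM + 1). Both P60 columns and P15 library 2 are the darkest, and the rows of H2afz and Smc4 change least in colour between E17.5 and P60 (log2 changes -0.65 and -1.02).

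Between neighbouring stages the bulk levels differed most for P60 against P18. For P0 against E17.5 the median log2 change was -0.14, with 0 genes called by edgeR (2.98% of all genes were called higher and 3.36% lower), 1 at an unadjusted p below 0.05 (Hmgb2, 0.89) and 1 called by DESeq2. For P3 against P0 it was -0.21, with 0 called by edgeR or DESeq2 (1.53% of all genes higher, 0.92% lower) and 1 at an unadjusted p below 0.05 (H2afz, 0.43). For P9 against P3, P15 against P9 and P18 against P15 the medians were 0.11, -0.34 and -0.01, with 0 called by either tool and 0 at an unadjusted p below 0.05. Of all genes, 0.0373% were called higher and 0.0373% lower for P9 against P3, and 0 in the next 2 steps. In contrast, P60 libraries held less than P18 libraries for all 39 genes with a median of -2.50. None of these genes was called between P60 and P18 by edgeR, although 38 had an unadjusted p below 0.05 and DESeq2 called 26. Of all genes, 0.734% were called lower in that step by edgeR. Here and below, shares of all genes called are for edgeR's adjusted p. No share of all genes is given for counts at an unadjusted p or from DESeq2, so those counts have no baseline. The edgeR counts of 0 for P60 against P18 and for P15 against P9 changed when a P15 library was left out. Without either P15 library 36 genes were called lower for P60 against P18. In the remaining steps at most 2 genes were called under any setting. Without P15 library 1 another 21 were called for P15 against P9. Without P15 library 2 the median for P15 against P9 was 0.45, the opposite sign. Both P60 libraries lay below both P18 libraries for all 39 genes, as for 23.9% of all genes tested. The levels of the 39 genes summed to 1801 and 1075 CPM at E17.5, 1493 and 1230 at P0, 866 and 1553 at P3, 1294 and 1245 at P9, 1656 and 341 at P15, 1077 and 922 at P18, and 276 and 270 at P60.

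The P15 libraries stood apart from each other. All 39 genes were higher in P15 library 1 than in library 2, by a median of 7.57 times (1.55 to 14.3 times), and the summed level differed by 4.85 times against 1.02 to 1.79 times within the other stages. The summed level of the 5 α markers was 6237 CPM in P15 library 1 and 15117 CPM in library 2, against 1536 to 9305 CPM in the other 12 libraries, and its part in this difference was not tested. Over all stages together 7 of the 39 genes were called (Hmgb2, Incenp, Bub1, Foxm1, Ncaph, Cenpa and H2afz), against 31.2% of all genes tested. Without either P15 library, 38 were called. Without any single library of E17.5, P0, P9, P18 or P60, 1 to 3 were called.

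Acinar transcripts moved with stage in the bulk libraries. The 10 acinar markers summed to 44823 and 15142 CPM at P60, against 4319 and 1266 CPM at E17.5, and none of the 10 was at 0. At the stages between, they summed to 199 and 741 CPM at P0, 23054 and 16597 at P3, and 24831 and 37897 at P9. At P15 they summed to 22513 and 11721 CPM, and at P18 to 12174 and 20505 CPM. Markers of several other cells were lower at P60. Mesenchymal markers summed to 7.66 and 1.66 CPM at P60 against 75.5 and 173 CPM at E17.5. Endothelial markers summed to 10.8 and 2.25 against 49.7 and 41.8 CPM, and erythroid markers to 0.784 and 0.859 against 15.2 and 48.6 CPM. Duct markers summed to 266 and 212 against 466 and 586 CPM, and the ε cell marker to 0.241 and 0 against 106 and 62.7 CPM. The PP cell marker was higher, at 335 and 375 CPM at P60 against 109 and 85.6 CPM at E17.5. The α markers summed to 3484 and 3088 CPM at P60 against 3093 and 1805 CPM at E17.5. The part of these cells in the result was not tested. With the acinar level as a covariate 2 of the 39 genes were called lower at P60 than at E17.5. Fewer were also called without E17.5 library 1 (20), P60 library 1 (15) or P60 library 2 (13), with all 39 changes negative each time. No share of all genes called is given for these alternative fits, so their counts have no baseline. Over all 18 alternative settings, the acinar covariate among them, the median log2 change of the 39 genes lay between -4.04 and -2.55.

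In single cells the transcripts were concentrated in few cells. Of 866 unselected cells, 51 (5.89%) had 10 or more of the 39 genes at 10 CPM or more, and these 51 held 75.8% of the summed level of the genes. The rest had 9 or fewer, with a median of 3. The 51 cells were not deeper (median 1.11 M reads against 1.15 M in the other 815) and had more genes detected (median 8861 against 7556). Their summed level had a median of 6663 CPM (537 to 21962), against 113 CPM in the other cells. The 51 cells were picked by these same genes, so their higher level and their share of it are partly set by that choice. All 39 genes reached 10 CPM in 12 of them.

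Among the 51 cells the genes ranged from present in all to present in 26. H2afz and Smc4 were at 10 CPM or more in 51 of 51, Hmgb2 in 50, Mad2l1 (a checkpoint protein) and Smc2 in 48, and Top2a in 47. Kif2c, a microtubule-depolymerising kinesin, was at that level in 26. Of the 51 cells, 34 had 30 or more of the genes and 17 had 10 to 29. In those 17, Smc4 and H2afz were present in 17, Hmgb2 in 16, Top2a, Smc2 and Mad2l1 in 14, and Cdk1, Ncaph and Cdca8 in 10. Foxm1 and Kif2c were present in 1 of the 17, Plk1, Cenpe and Kif23 in 2, and Ccnb2, Bub1, Bub1b and Hmmr in 3. In the 34 cells with more genes, Ccnb2 and Bub1 were present in 32 and Plk1 in 29. These counts describe cells that were grouped by the same genes.

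Some of the genes were also read in the other 815 cells, which lie below the limit of 10 genes and may include dividing cells. H2afz was at 10 CPM or more in 96.4% of them, Smc4 in 50.3%, Hmgb2 in 44.7%, Smc2 in 12.1% and Prc1, a spindle midzone protein, in 9.57%. Bub1 was at that level in 0 of 815. Of the summed single-cell level of H2afz, 28.5% lay in the 51 cells, against 41.9% for Smc4, 57.1% for Hmgb2 and 98.7% for Aurkb.

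The share of such cells differed by stage and type. In α cells it was 10 of 65 at E17.5 (15.4%, exact 95% interval 7.63% to 26.5%), 5 of 46 at P0 (10.9%), 2 of 45 at P9 (4.44%), 3 of 45 at P15 (6.67%), 0 of 44 at P18 and 0 of 83 at P60. In β cells it was 1 of 57 at E17.5 (1.75%, 0.0444% to 9.39%), 10 of 71 at P0 (14.1%, 6.97% to 24.4%), 10 of 88 at P3 (11.4%), 5 of 65 at P9 (7.69%), 4 of 57 at P15 (7.02%), 0 of 71 at P18 and 1 of 129 at P60 (0.775%, 0.0196% to 4.24%). By the rule of 3 cells, a count of 0 allows up to 6.82% in P18 α cells, 3.61% in P60 α cells and 4.23% in P18 β cells, and the exact intervals drawn for them reach 8.04%, 4.35% and 5.06%. Intervals and these limits cover counting error only. Single batches moved several shares: without 1 batch the share was 11.4% to 25.7% in E17.5 α cells, 0 to 8.70% in P9 α cells, 0 to 3.85% in E17.5 β cells, 3.33% to 10.8% in P15 β cells and 0 in P60 β cells without batch 3. Of the 5 P0 α cells 4 had 10, 12, 13 and 14 genes, so the share was 1 of 46 (2.17%) at a limit of 15 genes. With 1 CPM in place of 10 CPM it was 4 of 44 (9.09%) in P18 α cells. The highest batches were small: α E17.5 batch 4 with 3 of 6 cells, and β P0 batch 4 with 4 of 9 cells. With every cell thinned to 500000 reads the counts were the same, except 11 of 65 in α E17.5 cells.

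**Figure D2:**
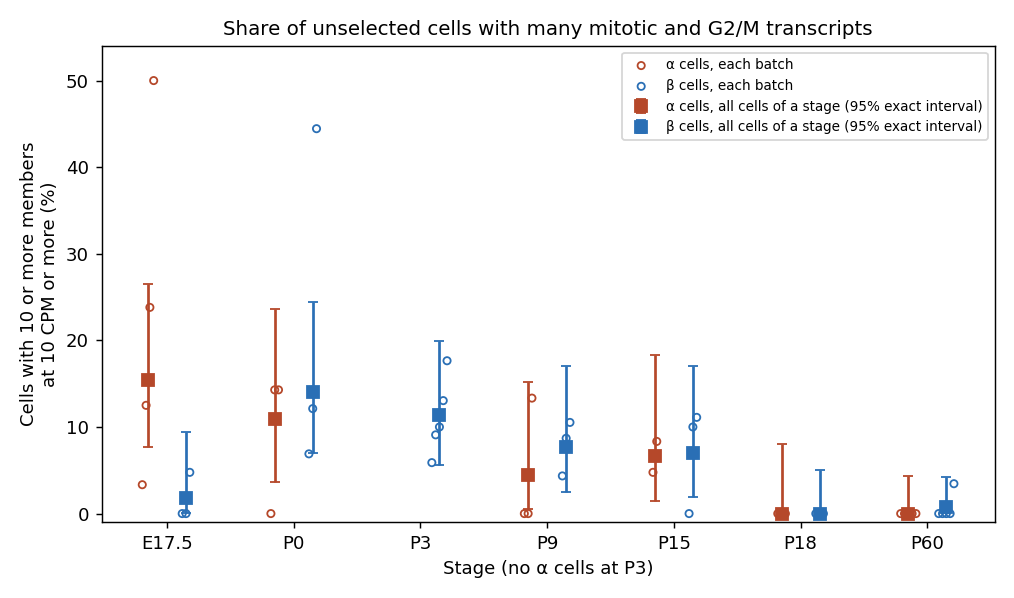
Share of unselected cells with 10 or more of the 39 genes at 10 CPM or more, by stage, in α cells (red, left) and β cells (blue, right). Circles are batches and squares are all cells of a stage with the exact 95% binomial interval. E17.5 β cells sit at 1.75% and E17.5 α cells at 15.4%, and P18 squares of both types sit at 0.

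In single α cells the genes were lower at P60 than at E17.5, with 27 of 39 called in edgeR on reads summed per batch. Of all 18537 genes tested, 5.66% were called lower. All 39 changes were negative, with a fitted median log2 change of -5.16, which becomes -4.90 when ratios of mean levels are used and genes with 0 reads at P60 are set at a floor of 3 reads over the group. The 5 P60 batches lay below the 4 E17.5 batches for 22 of 39 genes, as for 6.24% of all genes tested. The genes not called were Aurka, Kif11, Bub1b, Cdca8, Cenpa, Ncapg, Smc4, Smc2, Nusap1, Mad2l1, Incenp and Foxm1. Within FACS-sorted batches alone 9 were called, and within hand-picked batches alone 9, with all 39 changes negative in each.

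Cell cycle drivers were near 0 in adult α cells. Ccnb2 was at 0, 0.0630, 0, 0 and 0 CPM in the P60 batches (1 read in all), against 7.54, 78.4, 0.270 and 49.1 CPM in the E17.5 batches (adjusted p = 6.02e-04). Cdk1 was at 0.365, 0.126, 0.0524, 1.82 and 0 CPM at P60, against 17.2, 8.52, 13.8 and 76.7 CPM at E17.5 (log2 change -6.15 ± 1.58, adjusted p = 0.009). Ccnb1 was at 0.0456, 0.189, 0.367, 0.0608 and 0.109 CPM at P60, against 0.776, 24.7, 0.270 and 54.8 CPM at E17.5. Groups overlapped for Ccnb1, and did not for Ccnb2 and Cdk1. Foxm1 was at 5.52, 0, 0, 0.0608 and 0 CPM at P60, against 2.84, 1.70, 5.94 and 20.6 CPM at E17.5, overlapping them, and was not called (adjusted p = 0.541).

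Plk1, Aurkb, Bub1, Ncaph (a condensin subunit) and Kif23 (a midzone motor) had 0 reads in all 5 P60 α batches. Set at the floor of 3 reads over the group, Aurkb was 493-fold lower at P60 than at E17.5 (4.87, 0.320, 5.74 and 50.8 CPM at E17.5). In the same way Bub1 was 458-fold lower (2.24, 1.41, 6.48 and 47.2 CPM at E17.5) and Plk1 268-fold lower (4.91, 14.8, 0 and 13.9 CPM at E17.5). Each of these genes was called. E17.5 batch 4, which held 6 cells, was the highest for Aurkb and Bub1. Without it the folds were 116-fold for Aurkb, 108-fold for Bub1 and 210.0-fold for Plk1, a comparison chosen after seeing the data. These folds allow for read counting only and are no lower bounds on the change. Of the summed single-cell level of Aurkb, 98.7% lay in the 51 cells described above. Finding 0 such cells among 83 P60 α cells allows a share of up to 3.61%, against 15.4% at E17.5. Without any single batch of these groups, 22 to 27 of the 39 genes were called.

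Birc5 was at 0.365, 0.252, 0.262, 0.243 and 0.654 CPM in P60 α batches, against 8.85, 17.9, 19.9 and 78.7 CPM in E17.5 batches (log2 change -6.34 ± 1.28, adjusted p = 8.29e-04). Top2a was at 0.183, 0.315, 1.47, 0.304 and 0.109 CPM at P60, against 31.6, 26.1, 38.5 and 317 CPM at E17.5, and Mki67 at 0, 0.567, 0.314, 4.98 and 0 CPM against 12.3, 40.0, 33.5 and 124 CPM at E17.5. No P60 batch reached the lowest E17.5 batch for these. Cenpf stayed above 1 CPM in every P60 α batch, at 2.78, 6.30, 1.57, 6.14 and 3.44 CPM, against 5.11, 23.9, 6.61 and 76.9 CPM at E17.5 (log2 change -2.80 ± 0.73, adjusted p = 0.010).

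Anaphase and spindle genes were also low in adult α cells. Cdc20 was at 0, 1.01, 0, 0 and 0 CPM at P60, against 4.07, 64.9, 0.0675 and 7.51 CPM at E17.5 (adjusted p = 0.006), and Ube2c at 0.183, 0.630, 0.262, 0.122 and 2.35 CPM, against 3.75, 20.8, 0.405 and 20.1 CPM at E17.5 (adjusted p = 0.047). Tpx2 was at 0.456, 0.252, 0.314, 0.182 and 0.436 CPM at P60, against 5.11, 36.5, 3.17 and 56.9 CPM at E17.5. Kif11 had 5.43 CPM in P60 batch 1 and 0.164 to 0.818 CPM in the other P60 batches, against 7.76, 14.9, 4.93 and 103 CPM at E17.5, and was not called (adjusted p = 0.056). The chromatin genes were still present in P60 α cells: Hmgb2 was at 14.4, 10.3, 8.12, 5.10 and 13.3 CPM at P60, against 25.2, 58.4, 57.2 and 109 CPM at E17.5 (log2 change -2.62 ± 0.50, adjusted p = 4.30e-04), and H2afz at 37.4 to 62.0 CPM at P60, against 73.7 to 115 CPM at E17.5 (log2 change -0.88 ± 0.21).

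**Figure D3:**
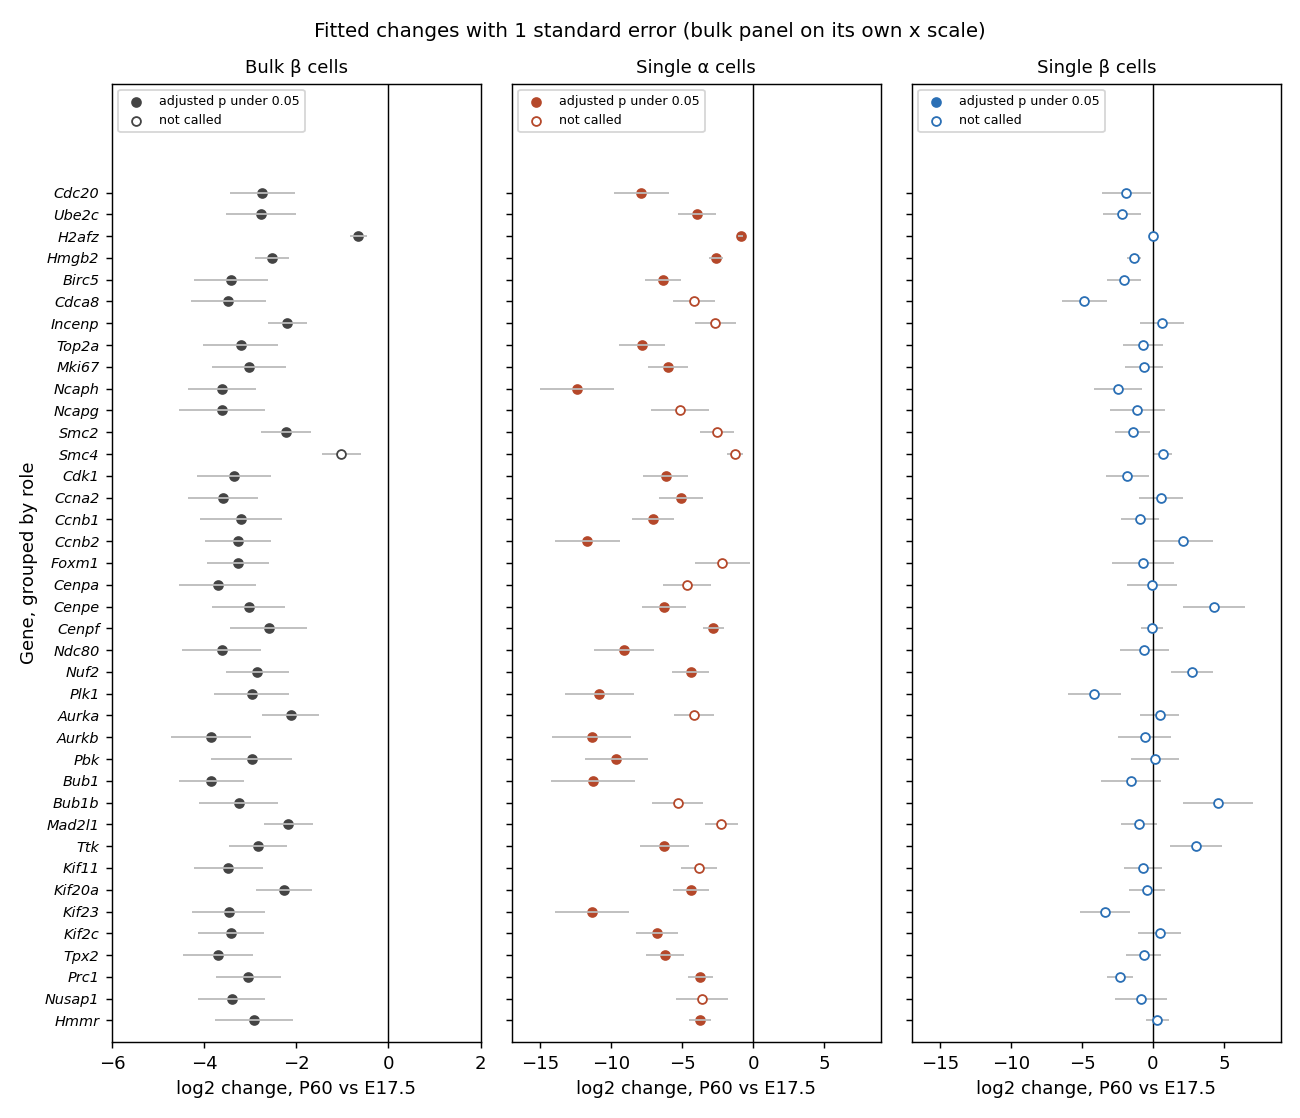
Fitted log2 change, P60 against E17.5, of each gene with 1 standard error in bulk β cells (left), single α cells (middle) and single β cells (right), with the bulk panel on its own x scale. Filled circles have an adjusted p below 0.05: 38 in bulk, 27 in α cells and 0 in β cells. Fitted changes of genes with 0 reads in a group depend on the fit and are no bounds.

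In single β cells the levels were low at both P60 and E17.5. None of the 39 genes was called by edgeR (3.89% of all genes were called lower and 3.08% higher), 4 had an unadjusted p below 0.05, and DESeq2 called 1. The median log2 change was -0.67, with 27 genes negative and 12 positive. As a ratio of mean levels the median was -0.05, and no gene was set at the floor because none had 0 reads in either group. Mki67 was at 0.146, 0, 8.34, 1.42 and 1.68 CPM in the P60 β batches, against 0, 1.15 and 5.39 CPM in the E17.5 batches (log2 change -0.65 ± 1.35), and Cdk1 at 0.117, 0, 6.49, 0 and 0 CPM at P60, against 0, 0.0606 and 6.53 CPM at E17.5. The groups overlapped throughout for both. P60 batch 3, with the 1 P60 β cell of the 51, was the highest for Mki67, Top2a, Cdk1, Aurkb and Bub1. Without that batch 2 genes were called. Without E17.5 batch 3 the median turned to 1.02.

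The E17.5 level was low in single β cells and high in bulk. The summed level of the 39 genes was 80.7, 129 and 207 CPM in the E17.5 single β cell batches and 1801 and 1075 CPM in the E17.5 bulk libraries, and Mki67 was at 0, 1.15 and 5.39 CPM against 183 and 101 CPM. At P0 the sums were 989, 358 and 2811 CPM in single β cells and 1493 and 1230 CPM in bulk. At P18 the sums were 143, 93.4 and 77.4 CPM in single β cells and 1077 and 922 CPM in bulk. For P18 against P15 the median log2 change was -4.95 in single β cells. In bulk it was -0.01, and -0.79 to 2.16 over the alternative settings. Bulk and single cells differ in chemistry and in the cells taken, and no test was made between them.

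Between neighbouring stages, single β cells stood higher at P0 than at E17.5 for all 39 genes, with a median log2 change of 4.10. None was called by edgeR (0.0701% of all genes were called higher), 27 had an unadjusted p below 0.05, and DESeq2 called 9. P0 batches all lay above E17.5 batches for 25 of 39 genes, as for 5.89% of all genes tested. Hmgb2 was at 108, 47.4 and 147 CPM at P0, against 10.6, 13.6 and 23.4 CPM at E17.5 (adjusted p = 0.080), and Cenpf at 36.1, 9.83 and 40.2 CPM, against 0.949, 2.67 and 1.65 CPM at E17.5 (adjusted p = 0.0885). From P0 to P15 the median log2 change of each step was -0.48, -0.15 and -0.33, with 0 genes called by edgeR or DESeq2 and 0 at an unadjusted p below 0.05. Of all genes, 0.0593% were called higher and 0.0917% lower for P3 against P0, 0.00539% higher and 0 lower for P9 against P3, and 0 higher and 0.0162% lower for P15 against P9. At P18 all 39 genes were lower than at P15 (median -4.95), with 0 called by edgeR (0 of all genes were called lower), 27 at an unadjusted p below 0.05 and 12 called by DESeq2. Groups did not overlap for 10 of 39, as for 4.32% of all genes tested. P15 batch 1 had a summed level of 119 CPM against 1506 and 709 CPM in the other P15 batches. At P15 4 of 57 β cells had 10 or more of the genes, and at P18 0 of 71. Top2a was at 0.195, 0.369 and 0 CPM at P18, against 0.194, 160 and 76.8 CPM at P15. P60 against P18 gave a median of 0.62 with 0 called by edgeR (0.0108% of all genes were called higher and 0.00539% lower), 1 at an unadjusted p below 0.05 (Nuf2) and 4 called by DESeq2. Over all stages 21 of 39 genes were called in β cells, against 7.09% of all genes.

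In α cells the largest step was also at P18. P0 levels were lower than E17.5 levels for all 39 genes (median -2.09), with 0 called by edgeR (0.0755% of all genes were called lower), 6 at an unadjusted p below 0.05 and 2 called by DESeq2. P9 against P0 had a median of 0.63, with 0 called by edgeR or DESeq2 (0.534% of all genes were called higher and 0.539% lower) and 2 at an unadjusted p below 0.05 (Cenpf and Kif2c). For P15 against P9 all 39 changes were positive (median 1.89, 0 called by edgeR or DESeq2, 0 of all genes called higher, 1 at an unadjusted p below 0.05). At P18 all 39 were lower than at P15 with a median of -6.59, or -6.47 as ratios of mean levels with the 9 genes at 0 reads set at the floor. None was called by edgeR (0.0108% of all genes were called lower), 30 had an unadjusted p below 0.05, and DESeq2 called 18. The 3 P18 batches lay below both P15 batches for every gene except Incenp, Ttk and Smc2, as for 9.5% of all genes tested. Cdk1 was at 0, 0 and 0 CPM at P18, against 69.9 and 31.0 CPM at P15, Ccnb2 at 1.72, 0 and 1.42 CPM, against 52.7 and 60.8 CPM, and Prc1 had the smallest p (adjusted p = 0.062). P60 against P18 had a median of -0.03, with 0 called by edgeR (0.0324% of all genes were called higher and 0.0917% lower), 4 at an unadjusted p below 0.05 (Ccnb2, Foxm1, Nuf2 and Tpx2) and 2 called by DESeq2. Over all stages 26 of 39 genes were called in α cells, against 10.5% of all genes, and 13 when the α batches were fitted alone, an alternative chosen after seeing the data.

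**Figure D4:**
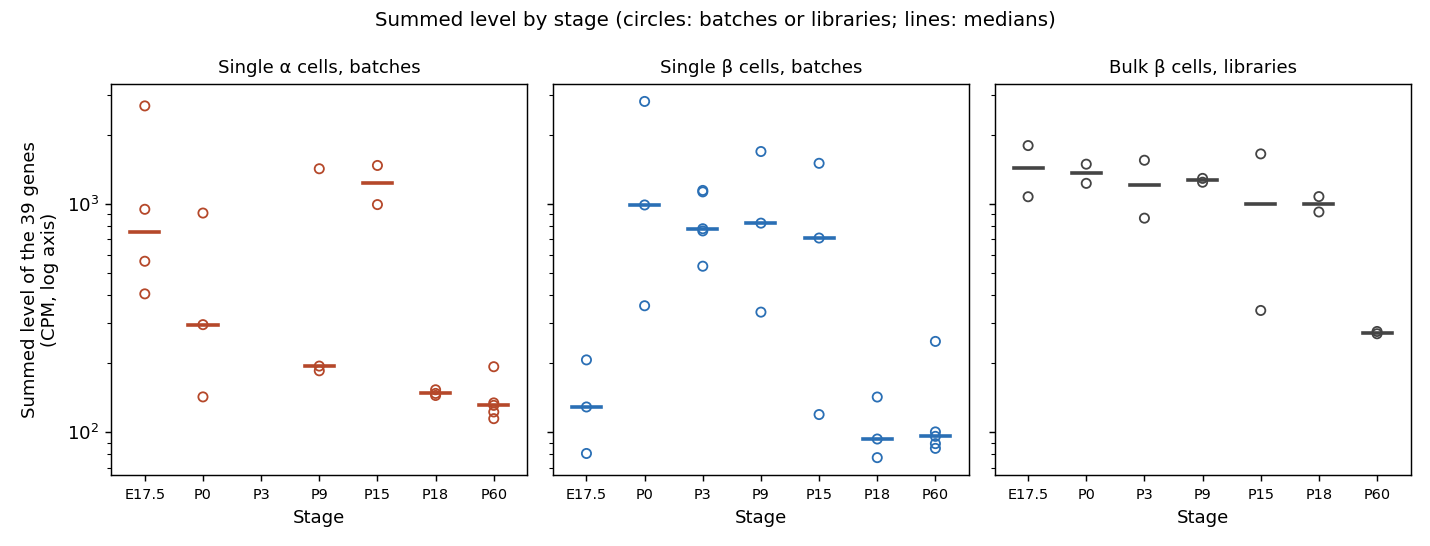
Summed level of the 39 genes (CPM, log axis) by stage in single α cell batches (left), single β cell batches (middle) and bulk β cell libraries (right). Circles are batches or libraries and lines are medians. In single cells P18 and P60 sit at 77.4 to 249.9 CPM, and in bulk P18 (922 and 1077 CPM) lies well above P60 (276 and 270 CPM).

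α and β cells differed at E17.5. All 39 genes were higher in E17.5 α cells than in E17.5 β cells, with a median log2 difference of 3.83, and 10 were called higher: Cenpe, Cenpf, Smc4, Hmmr, H2afz, Kif2c, Ccnb2, Hmgb2, Bub1b and Ttk. Of all genes, 3.25% were called higher. The 4 α batches all lay above the 3 β batches for 23 of 39 genes, as for 9.78% of all genes tested. Cenpe, a kinetochore motor, was at 1.94, 23.5, 2.77 and 31.4 CPM in α batches, against 0, 0.0202 and 0 CPM in β batches (1 read, adjusted p = 0.004). Cenpf was at 5.11, 23.9, 6.61 and 76.9 CPM in α batches, against 0.949, 2.67 and 1.65 CPM in β batches (log2 difference 3.97 ± 0.95, adjusted p = 0.005). Smc4 was at 54.4, 75.1, 81.2 and 201 CPM in α batches, against 0.831, 18.8 and 18.7 CPM in β batches (log2 difference 2.99 ± 0.72, adjusted p = 0.005). Hmmr, a spindle-assembly protein, was at 11.8, 30.0, 6.34 and 61.9 CPM in α batches, against 1.54, 2.30 and 2.19 CPM in β batches.

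At the other 5 shared stages no gene was called between α and β cells by edgeR, with 5, 1, 2, 3 and 7 at an unadjusted p below 0.05 at P0, P9, P15, P18 and P60 and 4, 1, 0, 4 and 5 called by DESeq2. In the same order, 2.14%, 2.9%, 2.78%, 4.19% and 5.92% of all genes were called higher in α cells and 2.83%, 3.61%, 2.63%, 4.86% and 7.02% lower. At P0 the sign was opposite to E17.5 for all 39 genes (median -2.41). Of the E17.5 batches, 3 of 4 α and 1 of 3 β batches were FACS-sorted. The difference rested on few batches: 4 genes were called without β E17.5 batch 1, which held 5 cells, and 6 without β batch 2. Within FACS-sorted batches alone 0 were called with 38 of 39 differences positive (median 2.13), and within hand-picked batches alone 0 were called with 39 positive (median 6.51).

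The change from E17.5 to P60 was itself compared between the types. It was more negative in α cells for 38 of 39 genes, and the difference was called for 5, which were Ccnb2 (adjusted p = 0.009), Cenpe (0.019), Hmmr (0.032), Ttk (0.035) and Nuf2 (0.035). Of all genes, 1.65% were called more negative and 2.02% more positive in α cells. Hmmr was at 2.46, 1.64, 1.36, 2.01 and 2.62 CPM in P60 α batches and 11.8, 30.0, 6.34 and 61.9 CPM in E17.5 α batches. In β batches it was at 1.76, 3.05, 5.38, 1.26 and 1.86 CPM at P60 and at 1.54, 2.30 and 2.19 CPM at E17.5. Nuf2, which links kinetochores to microtubules with NDC80, was at 0.0913 to 0.818 CPM in P60 α batches and 4.12 to 8.71 CPM in E17.5 α batches, and at 0.234 to 6.19 CPM in P60 β batches and 0 to 0.856 CPM in E17.5 β batches. Ccnb2, Cenpe and Ttk rest on 7, 1 and 5 reads in E17.5 β cells. Within FACS-sorted or hand-picked batches alone 0 were called. Without β E17.5 batch 1, β E17.5 batch 2 or β P60 batch 3 the count was 1, without α E17.5 batch 2 it was 2, and without α P60 batch 1 it was 8.

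Levels were higher in enriched than in unselected β cells of the same stages for all 39 genes. They were chosen by Pbk, Foxm1 and Cdk1, so those 3 are given as a description: Cdk1 was at 185 CPM in the enriched P0 batch and 40.1, 4.49 and 96.7 CPM in unselected P0 batches, and at 249 CPM in the enriched P9 batch and 18.2, 22.6 and 49.9 CPM in unselected P9 batches. All 3 selection genes were at 10 CPM or more in 6 of 9 enriched P0 cells and 4 of 12 enriched P9 cells, and none of the 3 in 2 of 9 and 5 of 12. Cells with 10 or more of the other 36 genes, a count chosen after seeing the data, were 6 of 9 enriched cells at P0 (66.7%, exact 95% interval 29.9% to 92.5%), against 10 of 71 unselected cells (14.1%). At P9 they were 6 of 12 enriched cells (50.0%, 21.1% to 78.9%), against 5 of 65 unselected cells (7.69%). The cells were screened to enrich dividing ones, so here and below higher levels of the other 36 genes are partly set by that choice.

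Of the other 36 genes 1 was called higher in enriched cells, over the mean of P0 and P9, and 0.044% of all 20445 genes tested were. That gene was H2afz, at 239 CPM in the enriched P0 batch and 217 CPM in the enriched P9 batch, against 90.3, 68.7 and 115 CPM in unselected P0 batches and 64.7, 76.9 and 99.8 CPM in unselected P9 batches (log2 difference 1.45 ± 0.24, adjusted p = 0.002). With 1 enriched batch per stage, each is assumed to vary like the others. The median log2 difference was 2.86 over the 36 genes and -0.33 over all genes tested. Cenpf was at 165 CPM in the enriched P0 batch, against 36.4, 9.93 and 39.9 CPM, and at 190 CPM in the enriched P9 batch, against 4.23, 32.5 and 53.1 CPM, and was not called (adjusted p = 0.117).

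Taken stage by stage, 0 of the 36 genes were called by edgeR at P0 or at P9 (0.0196% and 0.00489% of all genes were called higher), and DESeq2 called 1 of the 39 genes at each. The enriched batch lay above all 3 unselected batches for 32 of 36 genes at P0, as for 21.9% of all genes tested, and for 35 of 36 at P9, as for 20.9%. The exceptions were Bub1b, Ndc80, Ncaph and Ncapg at P0 and Kif2c at P9. Ncapg, a condensin subunit, was at 45.5 CPM in the enriched P0 batch, against 12.0, 0.487 and 74.0 CPM in the unselected batches, where batch 4 was above it. Ube2c was at 173 CPM in the enriched P0 batch, against 50.8, 2.41 and 33.6 CPM, and at 442 CPM in the enriched P9 batch, against 0.353, 33.5 and 40.2 CPM.

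**Figure D5:**
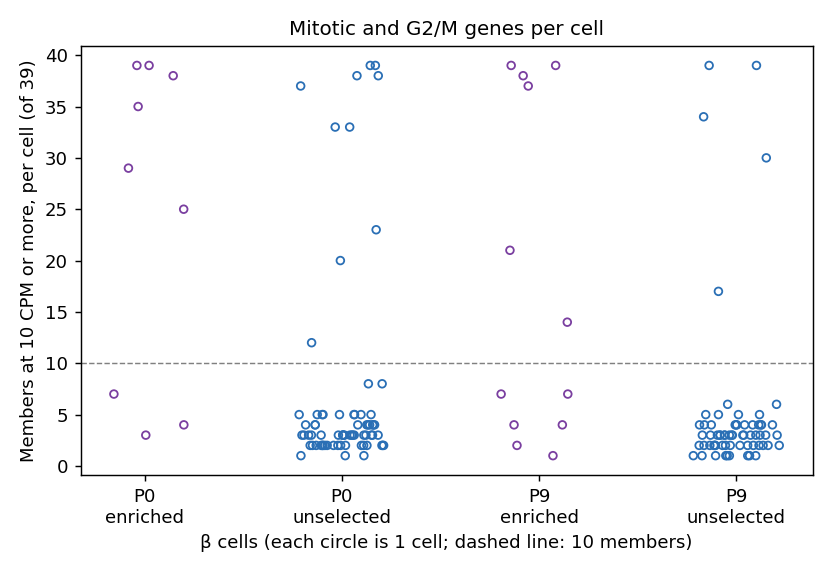
Number of the 39 genes at 10 CPM or more in each enriched and unselected β cell at P0 and P9 (each circle is 1 cell, dashed line at 10 genes). Of the enriched cells 6 of 9 at P0 and 6 of 12 at P9 lie on or above the line, against 10 of 71 and 5 of 65 unselected cells.

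Other genes of the same processes were counted from lists outside the 39, which held 126 measured genes. In bulk β cells 78 of them (61.9%) fell at P60 against E17.5, where 15.2% of all genes did. By list, 26 of 35 kinetochore and centromere genes fell, among them Dsn1 (log2 change -2.32, a kinetochore linker) and Ska3 (-5.27, a microtubule coupler). Of 27 spindle motors and microtubule factors 24 fell, among them Cit (-3.27, a cytokinesis kinase) and Tubb5 (-2.15, a β-tubulin). Of 18 mitotic kinases, phosphatases and cyclin partners 14 fell, and of 15 genes of the anaphase-promoting complex 4. Of 17 condensin, cohesin and separase genes 6 were lower (Espl1, the separase, at -3.20 and Esco2, a cohesin acetyltransferase, at -3.73) and 1 higher. Of 14 regulators of the MuvB, B-Myb and DREAM complexes 4 were lower (Lin9, a MuvB subunit, at -1.52) and 2 higher (Rbl2, the pocket protein p130, at 0.74). The share of all genes called higher in this comparison is not given here, so the 3 genes called higher have no baseline.

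In single α cells at P60 against E17.5 the same lists gave 10 of 35 kinetochore genes, 18 of 27 spindle genes, 6 of 18 kinases and partners, 3 of 15 anaphase-promoting complex genes and 4 of 17 condensin and cohesin genes lower, in all 42 of 126 (33.3%) against 5.66% of all genes. Kif15, a spindle kinesin, had a log2 change of -6.69 and Cks1b, a CDK-binding subunit, of -1.90. Among the DREAM regulators Mybl2, which encodes B-MYB, fell (-5.63) and Tfdp2, an E2F partner, rose (1.85). No share of all genes called higher is given beside the rise of Tfdp2. In single β cells 5 genes of all lists fell (Tubb5, Cks1b, Gtse1, Ube2s and Cdc26) and 0 rose. That share, 3.97%, is near the 3.89% of all genes. In E17.5 α cells against E17.5 β cells 9 genes of the lists were higher (7.14%, against 3.25% of all genes), among them Cit (log2 difference 5.31), Racgap1 (2.06) and Zwint (1.10). Cit and Zwint were not particular to E17.5, as both were also called higher in α cells at P0, P9, P15, P18 and P60. In that order the log2 differences were 3.21, 3.01, 3.95, 7.36 and 3.66 for Cit, and 1.73, 1.53, 1.21, 1.54 and 1.39 for Zwint. In enriched against unselected β cells, over the mean of P0 and P9, 2 were higher (1.59%, against 0.044% of all genes), Ska2 (2.03) and Racgap1 (2.03). That comparison had 1 enriched batch per stage.

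Some counts are uncertain because of neighbours or copies. Exons of 11 of the genes overlap those of another gene, on the opposite strand for Ccna2 with Exosc9, Kif20a with Cdc23, Ncapg with Lcorl, Cdca8 with 9930104L06Rik, Cdc20 with Elovl1, Nusap1 with Oip5 (5209 reads in single cells, against 9562 of Nusap1) and Prc1 with Rccd1. The strand setting of the counting is not given in the sources used here, and the Smart-seq2 libraries carry no strand. Near-identical copies elsewhere, at 95% identity or more over 200 bases or more, exist for 6 of the genes, Ccnb1, H2afz, Hmgb2, Mad2l1, Mki67 and Pbk. H2afz shares 682 bases with Tmcc1, which held 5245 reads in bulk against 25765 of H2afz. Processed pseudogenes of Ccnb1 and Hmgb2 held at most 23 reads over the bulk libraries, against 3976 reads of Ccnb1 and 18024 of Hmgb2.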

How the data were processed

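The deposited values are whole-number read counts per gene, for 14 bulk libraries and 917 single cells, and no unit was changed by the authors after counting as far as the files show. The submitters' processing notes name the builds GRCm38 and mm10 and, as tools, DESeq 1.20.0, HTSeq 0.6.0 and TopHat2 2.1.0. The strand setting is not given in the sources used here. The 92 spike-in rows (median 2.72% of a cell's reads) were left out. Cells were summed per labelled batch, which is the replicate, and no doublet caller was run. Counts were tested with edgeR 4.0.16 (TMM, low-count filter, quasi-likelihood, Benjamini-Hochberg over all genes, R 4.3.3), with DESeq2 1.42.0 as an alternative. Bulk, unselected and enriched fits tested 16086, 18537 and 20445 genes, and each fit used all of its groups, with the collection method as a covariate in single cells. The script was tested on simulated data. Shares of all genes called come from edgeR at an adjusted p below 0.05, and none was set beside DESeq2 or unadjusted counts. CPM are TMM-scaled. The members and the other gene lists were chosen with earlier results of these data known. Values are given for 18 genes covering each role, for the called genes with the smallest p and for exceptions. Alternatives left out each replicate, changed filters and weights, added a replicate block or acinar covariate, or used 1 collection method.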

Additional observations from a re-analysis of the deposited data

Results flagged for a closer look

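Single batches stood far from the rest of their group in 30 of 76 sets of values tested. Many sets are genes read in the same few batches, so the sets are not independent. The chance rate of about 1 in 20 groups therefore gives no baseline for this count. In α cells at E17.5, batch 4 (6 hand-picked cells) was far above the others for Top2a (317 CPM), Cdk1 (76.7 CPM), Aurkb (50.8 CPM), Bub1 (47.2 CPM), Birc5 (78.7 CPM), Kif11 (103 CPM) and Pbk (98.2 CPM), and batch 2 for Cdc20 (64.9 CPM).

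In P60 β cells batch 3 was the far one throughout. Its share of cells with 10 or more of the genes was 3.45% and the summed level 249.9 CPM. Levels there were 8.34 CPM for Mki67, 25.7 for Top2a, 6.49 for Cdk1, 2.46 for Ccnb2, 4.02 for Aurkb, 3.04 for Bub1, 2.87 for Birc5, 4.19 for Kif11, 2.46 for Tpx2, 2.71 for Foxm1 and 14.6 for Pbk.

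In P60 α cells the far batch differed by gene. Batch 1 had a summed level of 194 CPM, with 5.43 CPM of Kif11 and 5.52 of Foxm1. Batch 2 had 0.0630 CPM of Ccnb2 and 1.01 of Cdc20, batch 3 had 1.47 CPM of Top2a, batch 4 had 4.98 CPM of Mki67 and 1.82 of Cdk1, and batch 5 had 2.35 CPM of Ube2c.

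The fitted log2 change between P60 and E17.5 differed between α and β cells for Ccnb2 (-13.84), Cenpe (-10.60), Ttk (-9.29), Nuf2 (-7.17) and Hmmr (-4.03), each by edgeR's test of the difference. Values of genes near 0 reads depend on the fit and are no bounds.

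Few cells outside the comparisons had 10 or more of the genes. All 39 genes were at 10 CPM or more in 1 of 2 multihormone β cells at P15. All 39 were also at that level in the multihormone cell of the enriched P9 batch, which was screened for Pbk, Foxm1 and Cdk1. Every other group of multihormone or hormone-negative cells held 0 such cells, with at most 9 genes in a cell.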

How the results depend on the processing

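The median change of the 39 genes turned sign under at least 1 setting in 17 of 30 comparisons, and in 13 it did not. Those 13 include P60 against E17.5 in bulk β and in α cells, P18 against P15 in both types, P0 against E17.5 in single β cells, α against β at E17.5 and the enriched comparisons. In the 17 edgeR called 0 of the genes in the main setting. Counts of genes called moved as follows. For bulk P60 against E17.5 (38) an acinar covariate gave 2, and single libraries left out gave 13 to 39. For bulk over all stages (7) DESeq2 gave 25, the covariate 1 and no filter 39, and libraries left out 1 to 38. For bulk neighbouring stages (0, gene-by-step calls) DESeq2 gave 27, no filter 43, the replicate block 1, and libraries left out 0 to 57, with 57 and 36 without P15 library 1 or 2. For α cells P60 against E17.5 (27) FACS-sorted and hand-picked batches alone gave 9 each, and batches left out 22 to 27. For α cells over all stages (26) α batches alone gave 13 and hand-picked batches 0, with 22 to 31 on leaving out batches. For α neighbouring stages (0) DESeq2 gave 22, FACS-sorted 1, equal weights 3, no filter 1, and batches left out 0 to 0. For β cells P60 against E17.5 (0) DESeq2, β batches alone and no filter gave 1 each, equal weights 3, and batches left out 0 to 2. For β cells over all stages (21) FACS-sorted gave 4, equal weights 38 and hand-picked 1, and batches left out 17 to 26. For β neighbouring stages (0) DESeq2 gave 25, FACS-sorted 2, β batches alone 1, equal weights 6, and batches left out 0 to 0. For the α minus β difference of change (5) DESeq2 gave 12, FACS-sorted and hand-picked 0, equal weights 9, no filter 8, and batches left out 1 to 8. For α against β over 6 stages (10) DESeq2 gave 30, FACS-sorted 3, equal weights 40, hand-picked 0, and batches left out 4 to 13. For enriched β cells (1) DESeq2 and FACS-sorted gave 4 each, the replicate block 0, and batches left out 1 to 1. For P0 and P9 apart (0) DESeq2 gave 2, FACS-sorted 1, and batches left out 0 to 1. The share of cells with 10 or more genes (5.89%) was 17.7% at 5 or more genes, 13.0% at 1 CPM or more, and 5.44% to 6.17% without single batches. The causes were not tested. α or β batches alone were chosen after seeing the data. Replicate numbers did not pair the samples (correlations of deviations -0.139 to 0.427 in bulk, -0.0722 to 0.100 in single cells); with the replicate block the other counts were 38 and 9 in bulk, 22 and 25 in α cells, 21 in β cells, 5 for the difference of change and 8 for α against β. Hand-picked batches alone could not be run for enriched cells, which were all FACS-sorted. Depth limits genes near 0 reads.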
